A study of Mus musculus with 82 samples.

Results

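A total of 4462 regions of accessible chromatin, selected on the presence and absence of called peaks, were listed in D209N cells at day 7 and in Flag cells at days 7 and 3, but not in D209N cells at day 3. The cells were mouse embryonic fibroblasts (OG2-MEFs) on the way to pluripotency after retroviral delivery of OSKM, a set of transcription factors made of c-Myc, Klf4, Sox2 and Oct4. In the D209N group the fibroblasts also received a retrovirus for RNase H1(D209N), which carries a substitution in the catalytic site. In the Flag group they received OSKM with Flag, read here as the control of the series. Both groups were assayed by ATAC-seq, in which a transposase inserts sequencing adapters into open DNA, at day 7 and at day 3. The labels give 2 replicates in each of the 4 groups, but the analysis rests on 1 deposited peak list per group, so no value has a replicate error and no test between conditions was made. Intervals are Wilson 95% intervals and cover counting error only. The cultures were bulk populations, so fewer cells with an open site and less opening per cell cannot be told apart.

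The members were found by merging the 4 peak lists over chromosomes 1 to 19, X and Y into 55272 union regions, counting a list as holding a region when at least 1 bp of a peak overlapped it. The 4462 members made up 8.07% of the union regions and 17% of the 26247 regions present in the other 3 lists. The mirrored pattern, absence from Flag day 3 alone, held 1254 regions (2.27% of all, and 5.44% of the 23039 regions in the 3 other lists). Counted without the day 7 lists, 10001 regions (18.1%) were in Flag day 3 and not in D209N day 3, and 2823 (5.11%) the other way round. There were 3.56 members for each mirrored region (3.34 to 3.79). This ratio turns to 0.0865, with 637 members, when the Flag day 3 list alone is cut to peaks above its median width, a change that by construction removes members and adds mirrored regions, and is 3.80 when all 4 lists are cut so. The D209N day 3 list was also the shortest, with 29189 peaks, against 36375 in Flag day 3, and the 2 day 7 lists held 40452 peaks (D209N) and 42439 (Flag). The part of list length in the number of members was not tested. The presence calls of these same lists chose the members, so their absence from D209N day 3 is the rule and not a result.

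RNase H1 digests the RNA of RNA:DNA hybrids, the structures called R-loops when they form in chromatin. A form without catalytic activity can bind hybrids without resolving them. In reprogramming, fibroblast enhancers bound by AP-1, TEAD and RUNX factors lose accessibility while the delivered factors open silent sites, and genes of epithelial cells are switched on before the late pluripotency genes. A site that is open in control cells at day 3 and in both arms at day 7 is one that the D209N lists showed later.

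Promoters of 6 member regions are shown as examples. They were chosen because each overlaps a member at a gene of pluripotency, of the TEAD and Hippo pathway or of retinoic acid synthesis. Each runs from 250 bases before to 50 bases after a start site, 5′ to 3′ on the gene's strand, from RefSeq on GRCm38.p6. Capitals mark matches on either strand to CCNCNCCC (KLF factors), GGAATG (TEAD factors), CCAAT (NFY) and ATGCAAAT (OCT factors), and overlapping matches run together.
Sox2, chr3:34649745-34650044, plus strand: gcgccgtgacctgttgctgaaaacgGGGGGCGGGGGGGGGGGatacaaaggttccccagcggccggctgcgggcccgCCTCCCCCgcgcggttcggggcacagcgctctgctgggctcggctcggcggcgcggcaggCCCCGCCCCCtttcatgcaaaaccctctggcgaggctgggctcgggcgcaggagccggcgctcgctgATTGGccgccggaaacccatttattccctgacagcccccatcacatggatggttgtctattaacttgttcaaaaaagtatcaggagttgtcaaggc
Utf1, chr7:139943606-139943905, plus strand: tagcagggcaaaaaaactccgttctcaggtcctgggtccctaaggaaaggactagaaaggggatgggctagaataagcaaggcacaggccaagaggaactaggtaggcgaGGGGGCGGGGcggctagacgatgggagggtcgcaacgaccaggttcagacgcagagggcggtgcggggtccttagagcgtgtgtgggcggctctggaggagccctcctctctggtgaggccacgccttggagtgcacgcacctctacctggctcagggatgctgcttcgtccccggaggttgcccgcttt
Tead3, chr17:28350551-28350850, minus strand: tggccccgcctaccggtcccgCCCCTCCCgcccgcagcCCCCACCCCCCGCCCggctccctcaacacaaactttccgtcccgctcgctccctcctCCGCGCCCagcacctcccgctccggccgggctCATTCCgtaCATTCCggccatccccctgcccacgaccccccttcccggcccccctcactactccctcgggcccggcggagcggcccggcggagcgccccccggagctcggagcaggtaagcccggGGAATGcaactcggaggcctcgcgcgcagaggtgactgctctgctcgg
Ccn1, chr3:145649936-145650235, minus strand: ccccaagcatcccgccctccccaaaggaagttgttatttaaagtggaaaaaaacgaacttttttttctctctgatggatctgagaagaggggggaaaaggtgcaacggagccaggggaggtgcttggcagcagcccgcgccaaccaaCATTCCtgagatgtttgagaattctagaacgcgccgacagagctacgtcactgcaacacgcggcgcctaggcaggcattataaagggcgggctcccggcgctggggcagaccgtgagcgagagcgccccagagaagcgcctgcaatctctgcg
Ajuba, chr14:54577612-54577911, minus strand: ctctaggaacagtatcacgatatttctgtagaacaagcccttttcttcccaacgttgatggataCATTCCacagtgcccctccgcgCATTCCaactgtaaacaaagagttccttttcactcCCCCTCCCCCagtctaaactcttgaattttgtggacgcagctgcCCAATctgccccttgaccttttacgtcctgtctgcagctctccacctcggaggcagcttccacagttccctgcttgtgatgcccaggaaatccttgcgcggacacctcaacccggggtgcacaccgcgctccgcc
Aldh1a2, chr9:71215539-71215838, plus strand: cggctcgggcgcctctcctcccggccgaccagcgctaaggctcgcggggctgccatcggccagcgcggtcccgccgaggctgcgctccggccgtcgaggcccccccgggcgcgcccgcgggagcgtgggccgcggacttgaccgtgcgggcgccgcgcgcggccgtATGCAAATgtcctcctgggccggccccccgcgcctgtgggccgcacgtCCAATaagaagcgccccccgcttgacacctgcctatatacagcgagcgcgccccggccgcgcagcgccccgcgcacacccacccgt
The Sox2 sequence holds 9 KLF matches and 1 NFY match, with 27 CpG dinucleotides. The Utf1 promoter holds 2 KLF matches, but only its last 95 bases lie under the member region, and both matches lie outside them. The Tead3 entry shown holds 3 TEAD matches, Ajuba 2 and Ccn1 1. The same member covers other Tead3 entries, with 1 and 0 TEAD matches. Aldh1a2 is the richest in CpG of the 6, with 50, and holds 1 OCT match. A match is a string of letters and not a bound site. Over all 770 member promoters, 13.0% held a TEAD match and 1.04% an OCT match, so the 6 are not typical of them.

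Members were narrow in the Flag day 3 list and mostly wider in Flag at day 7, where the D209N peaks had a like width. The deposited lists carry no score or read count, so the width of the widest peak in a region is the measure of size available. The median was 419 bp in D209N day 7 (quartiles 309 and 547 bp), 413 bp in Flag day 7 (308 and 543 bp) and 308 bp in Flag day 3 (246 and 405 bp). Regions in all 4 lists had medians of 698 bp in D209N day 7, 537 bp in D209N day 3, 686 bp in Flag day 7 and 617 bp in Flag day 3. The Flag peak was wider at day 7 than at day 3 in 73.5% of members (72.2 to 74.8%), against 67.1% of the regions in all 4 lists (66.4 to 67.7%). At day 7 the arms were even: the D209N peak was the wider one in 2193 members (49.1%, 47.7 to 50.6%), the Flag peak in 2241, and 28 were equal.

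**Figure D1:**
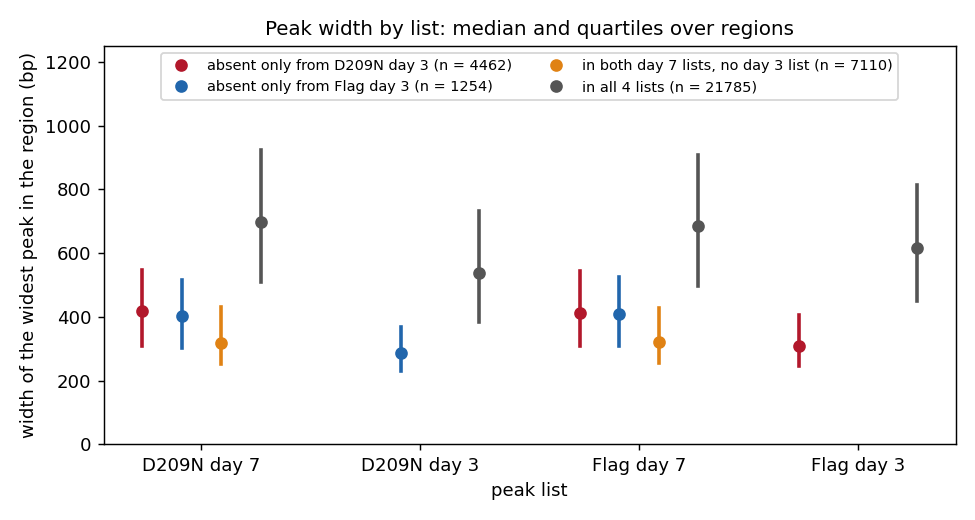
Width in bp of the widest peak of a region (y axis) in each peak list (x axis); points are medians and lines run between the quartiles over regions, and a set has no point in a list from which it is absent by its rule. Members (red) had medians of 419 and 413 bp in the D209N and Flag day 7 lists and 308 bp in Flag day 3, between the regions seen at day 7 alone (orange, 319 and 321 bp at day 7) and the regions in all 4 lists (grey).

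The share of regions absent from D209N day 3 followed the width of the Flag day 3 peak. Regions in the 3 other lists were split into 10 classes of about equal number by that width. In the narrowest class (4 to 271 bp) 61.7% were members (59.9 to 63.6%), in the second 42.0%, in the third 28.4%, in the fifth 8.49% and in the widest class (993 to 5570 bp) 0.684%. The mirrored pattern fell with the width of the D209N day 3 peak as well, but started lower, at 23.0% in its narrowest class (21.3 to 24.8%). Only 14.3% of members had a Flag day 3 peak above the median of that list.

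Position set the 2 patterns apart at matched width. A gene-end region is one that overlaps the 1 kb around either outer end of a protein-coding gene. In the narrowest class, members made up 64.4% of gene-end regions (59.9 to 68.7%) and 61.2% of the others (59.1 to 63.2%), and in the third class 30.9% (27.4 to 34.5%) and 27.6% (25.7 to 29.6%). For absence from Flag day 3 the narrowest class gave 15.1% of gene-end regions (12.2 to 18.4%) and 25.3% of the others (23.4 to 27.4%), and the third class 3.15% (2.05 to 4.81%) and 10.6% (9.18 to 12.1%). Narrow gene-end regions were thus about as often absent from D209N day 3 as narrow regions elsewhere, while from Flag day 3 they were absent less often than the others, beyond counting error.

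**Figure D2:**
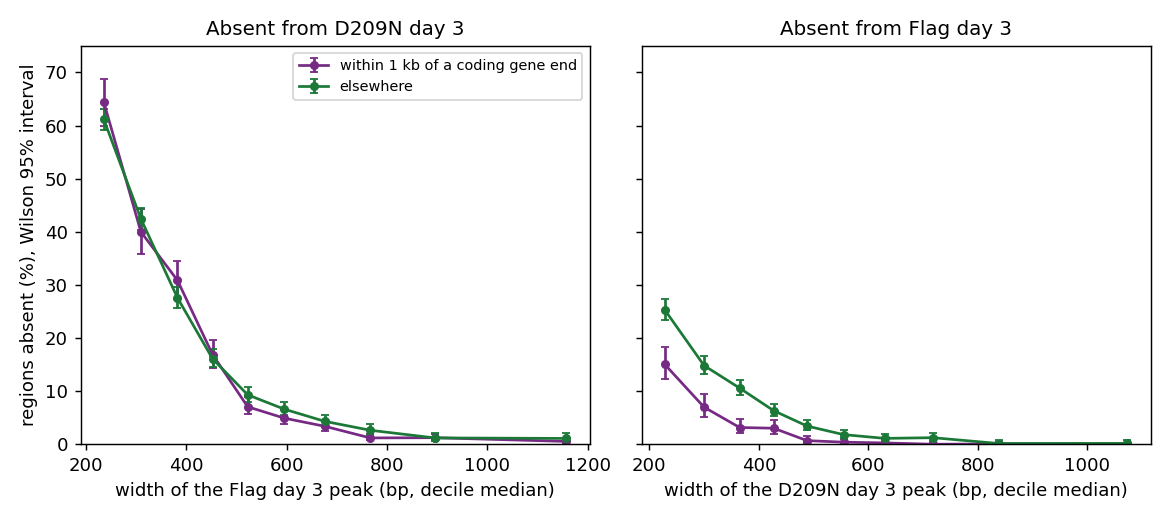
Share of regions absent from D209N day 3 (left) or from Flag day 3 (right), among regions present in the 3 other lists, by the median width in bp of 10 classes of about equal number, sorted by width in the opposite arm's day 3 list; bars are Wilson 95% intervals. Gene-end regions (purple) and other regions (green) lie together on the left, at 64.4% and 61.2% in the narrowest class, and apart on the right, at 15.1% and 25.3%.

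Under the 1 bp rule, members lay nearer to genes than regions seen at day 7 alone and farther than regions of all 4 lists. Of the 4462 members 1049 were gene-end regions, or 23.5% (22.3 to 24.8%), against 25.3% of all other union regions. The members' share rests on the peaks admitted: it was 36.7% with Flag day 3 peaks above their median width only and 51.6% with that limit in all 4 lists. The mirrored set had 13.9% (12.1 to 15.9%), the regions seen at day 7 alone in both arms 15.1% (14.3 to 15.98%) and the regions in all 4 lists 46.3% (45.6 to 47.0%). At like widths of the Flag day 3 peak, members and regions of all 4 lists lay closer. From 200 to below 300 bp the shares were 16.4% and 18.3%, and from 300 to below 400 bp 24.0% and 22.1%. Below 200 bp members stood higher, at 23.3% and 15.2%, and from 600 to below 900 bp lower, at 45.0% and 57.4%. The median distance from a member's centre to the nearest end of a coding gene was 10.0 kb, against 16.2 kb in the mirrored set, 13.7 kb in regions seen at day 7 alone and 2.46 kb in regions of all 4 lists. There were 407 members more than 100 kb from any coding gene end (9.12%). Across chromosomes the members' share of the regions in the 3 other lists ran between 12.3% on chromosome 19 (10.1 to 14.9%) and 18.8% on chromosome 15 (16.6 to 21.2%), with 16.6% on the X and 3 of 11 regions on the Y.

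The nearest D209N day 3 peak was usually far away. Its median distance from a member was 16.3 kb, and it lay within 500 bp in 50 members (1.12%) and within 10 kb in 1618 (36.3%). The members closest to failing the rule lay 12 bp (near Car14), 103 bp (near Plce1) and 122 bp (near Kng2) from a D209N day 3 peak. Just outside it were regions near Cacna1c, Vit and Plppr1, kept out by D209N day 3 peaks of 1, 2 and 2 bp. Peaks of 50 bp or less were rare on both sides: 38 regions of all 4 lists owed their place to such a D209N day 3 peak, and 26 members owed theirs to such a Flag day 3 peak.

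The peak names bear on what absence means here. In every list the names carry a serial number that ascends along the chromosome, and some numbers are missing: 27.0% in D209N day 7 and 20.5% in D209N day 3, against 21.5% in Flag day 7 and 10.0% in Flag day 3. Between the 2 D209N day 3 peaks on either side of a member, at least 1 number was left out for 2678 of 4457 members (60.1%, 58.6 to 61.5%). For regions seen at day 7 alone in both arms the same gap in the D209N day 3 list occurred in 48.6% (47.4 to 49.7%), and for the mirrored set in the Flag day 3 list in 26.7% (24.3 to 29.2%). Regions of Flag day 3 alone had the gap in the D209N day 3 list in 56.5%, and those of Flag day 3 and 1 day 7 list in 58.0% (Flag day 7) and 58.6% (D209N day 7). In the day 7 lists it was commoner, at 80.0% of regions absent only from D209N day 7 and 69.2% of those absent only from Flag day 7. The flanking peaks were a median of 82.2 kb apart for members, so a missing number need not belong to the member itself. With flanks within 20 kb, a number was missing at 43.5% of 423 members (38.9 to 48.3%), at 28.8% of 548 regions seen at day 7 alone (25.2 to 32.8%) and at 20.6% of 160 mirrored regions (15.1 to 27.5%). No label or header says why numbers are missing, and their part in the members' absence was not tested.

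Of 21887 coding genes, 3314 (15.1%) had a member assigned to them as the nearest gene end within 100 kb, and 1129 (5.16%) had a gene-end member. For the mirrored set these shares were 4.62% and 0.914%. The 13 gene lists described next were chosen with earlier results of these data known, so each count is a description, to be read beside 5.16% for gene-end members and 15.1% for assigned ones. Both shares rise by construction with the number of Flag day 3 regions that a gene has, which differed between lists. The whole Flag day 3 list held 36375 peaks, and there were 4462 members. The widths given are those of the widest peak in the region in each list.

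Among 40 pluripotency genes, 4 had a gene-end member (10.0%, 3.96 to 23.1%) and 0 had a mirrored gene-end region. Sall4, a zinc finger factor of embryonic stem cells, had no D209N day 3 region at all, and its 3 regions in the Flag day 3 list were all members. The one at its upper end, chr2:168766636-168767350, was 704 bp wide in D209N day 7, unlisted in D209N day 3, 482 bp in Flag day 7 and 369 bp in Flag day 3. It was thus widest in the D209N day 7 list. At Utf1, a chromatin factor of embryonic stem cells, chr7:139943811-139944533 was 635 bp wide in D209N day 7, unlisted in D209N day 3, 611 bp in Flag day 7 and 182 bp in Flag day 3. The Sox2 promoter region, chr3:34649719-34650243, measured 269 bp in D209N day 7 and was unlisted in D209N day 3, against 386 bp in Flag day 7 and 381 bp in Flag day 3. A D209N day 3 peak lay 0.45 kb from it, and Sox2 had 1 other gene-end region that was listed in D209N day 3. Sox2 is also a delivered factor, and reads of the vector and of the gene cannot be told apart where they share sequence. The fourth gene, Dnmt3l, a cofactor of the de novo DNA methyltransferases, was reached by a region on the promoter of its neighbour Aire. Nanog, a core pluripotency factor, had a member 38 kb from its end, with peaks of 404 bp in D209N day 7, 503 bp in Flag day 7 and 551 bp in Flag day 3.

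Of 34 epithelial genes 3 had a gene-end member (8.82%), and 0 a mirrored one. An assigned member was found at 5 of the 34 (14.7%), against 15.1% of all coding genes. An assigned mirrored region was found at 4 of the 34, against 4.62% of all coding genes. At Cdh1, which encodes E-cadherin, chr8:106603182-106603879 was 488 bp wide in D209N day 7, unlisted in D209N day 3, 608 bp in Flag day 7 and 384 bp in Flag day 3. At Grhl2, an activator of epithelial genes, chr15:37232206-37232748 was 219 bp wide in D209N day 7, against 543 bp in Flag day 7 and 294 bp in Flag day 3. Tjp1, the tight junction protein ZO-1, had peaks of 391 bp in D209N day 7, 502 bp in Flag day 7 and 477 bp in Flag day 3. These 3 were narrower at day 7 in D209N than in Flag, whereas the other 4 members assigned to the list, at Krt8, Grhl1, Tjp1 and Grhl2, were wider in D209N, such as the second Grhl2 region with 410 bp in D209N day 7 and 232 bp in Flag day 7. Genes of the opposite, mesenchymal state were reached too: 3 of 26 had a gene-end member (11.5%) and 12 of 26 an assigned one. An assigned mirrored region was found at 3 of 26. The 26 genes held 116 assigned Flag day 3 regions, of which 19 were members. Those with a gene-end member were Twist2, a transcription factor of mesenchyme, and Tgfb1, a ligand that maintains the mesenchymal state. The third was Tagln, an actin-binding protein of contractile cells, through a region nearer to Sidt2. The Twist2 promoter region was 873 bp wide in D209N day 7, against 423 bp in Flag day 7 and 422 bp in Flag day 3. Tgfb1 had 653 bp in D209N day 7, 659 bp in Flag day 7 and 464 bp in Flag day 3.

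In fibroblast matrix, 3 of 28 genes had a gene-end member (10.7%) and 12 an assigned one. An assigned mirrored region was found at 5 of the 28, against 4.62% of all coding genes. The 28 genes held 81 assigned Flag day 3 regions, of which 17 were members. Col5a1, a chain of collagen V, had the widest D209N day 7 peak among the listed genes: chr2:27885717-27887219 measured 1503 bp in D209N day 7, was unlisted in D209N day 3, and measured 958 bp in Flag day 7 and 837 bp in Flag day 3. Lox and Loxl1, which crosslink collagen and elastin, were the other 2. The Lox region lay 0.168 kb from a D209N day 3 peak, and Lox had 1 gene-end region listed in D209N day 3. The Loxl1 region owed its place to a Flag day 3 peak of 20 bp, and Loxl1 also had a mirrored gene-end region. AP-1 factors had no gene-end member at any of 12 genes, and Junb had a mirrored one. An assigned member was found at 2 of the 12, and an assigned mirrored region at 3. None of 26 genes of R-loop processing had a gene-end member, which allows up to 12.9% by the upper bound of the interval, and 4 had a member further off: Rnaseh2b, a subunit of RNase H2, the helicase gene Dhx9, the topoisomerase gene Top1 and Brca2.

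Counted over all genes of a list, TEAD and Hippo had the highest share of the 13, with a gene-end member at 5 of 17 genes (29.4%, 13.3 to 53.1%). A mirrored one was found at 0, though 2 of the 17 genes had an assigned mirrored region and 7 an assigned member. A gene can have a gene-end member only where the Flag day 3 list holds a gene-end region. Over such genes the counts were 5 of 16 here, 4 of 10 in the neural list and 2 of 4 in the endoderm and trophoblast list. The last includes Sox17, which rests on a Flag day 3 peak of 4 bp. The share over all coding genes with such a region is not given here, and 5.16% is not comparable with these counts. On that base the TEAD and Hippo share was not the highest. TEAD factors bind DNA and recruit YAP and TAZ, which Hippo signalling keeps out of the nucleus. Of the factors themselves, Tead3 had peaks of 1182 bp in D209N day 7, 1279 bp in Flag day 7 and 369 bp in Flag day 3, none being listed in D209N day 3. Tead4 had 287 bp in D209N day 7, 396 bp in Flag day 7 and 152 bp in Flag day 3. Vgll4, which competes with YAP for TEAD, had 736 bp in D209N day 7, 638 bp in Flag day 7 and 447 bp in Flag day 3. The day 3 peaks of these members in Flag were all narrower than those of day 7. Tead4 and Vgll4 each had 1 other gene-end region that was listed in D209N day 3. Neither of their members overlapped a RefSeq promoter. Ccn1, a secreted matrix protein and a common YAP target, had 423 bp in D209N day 7, 588 bp in Flag day 7 and 399 bp in Flag day 3. Ajuba, a LIM protein that restrains the Hippo kinases, had 1023 bp in D209N day 7, 987 bp in Flag day 7 and 803 bp in Flag day 3. Tead1 had a gene-end region in every list, and 5 members inside the gene at 20.9 to 81.5 kb from its nearer end.

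**Figure D3:**
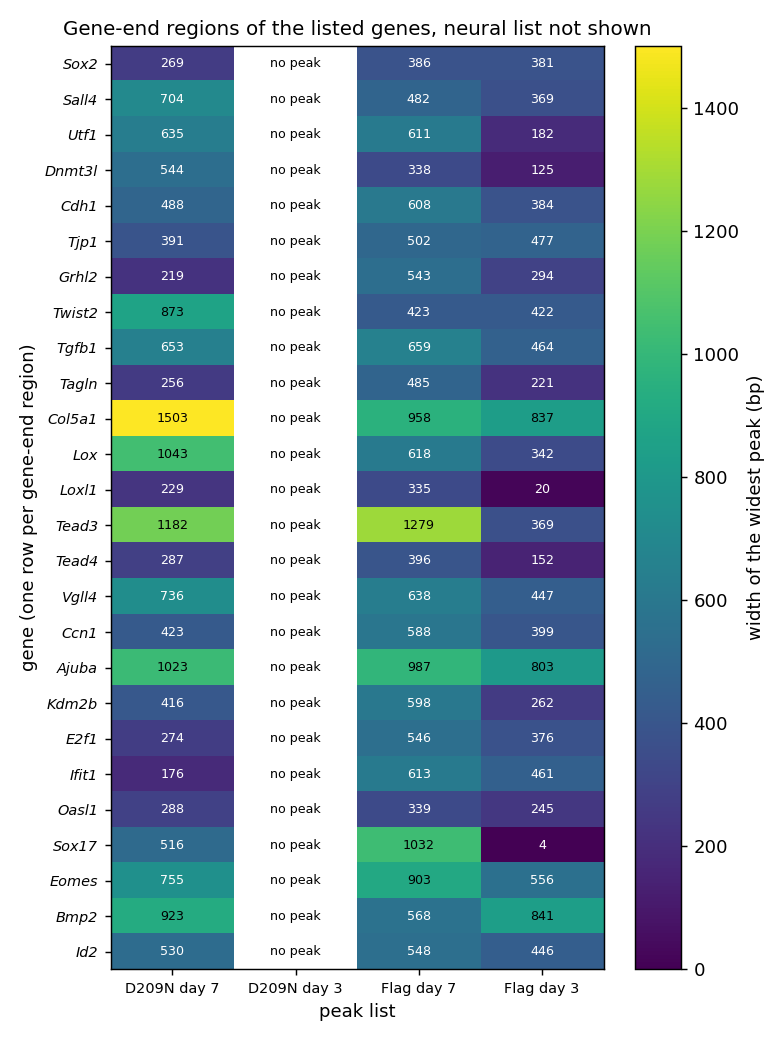
Width in bp of the widest peak (colour and number) in each peak list (x axis) for the gene-end members of the gene lists other than the neural one (y axis, 1 row per region). The D209N day 3 column is empty by the rule; widths ran as high as 1503 bp for Col5a1 in D209N day 7, and 2 rows, Loxl1 and Sox17, rest on Flag day 3 peaks of 20 and 4 bp.

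Polycomb genes had 1 gene-end member, and most of their assigned members belonged to Bcor and Rybp. Kdm2b, which brings a Polycomb complex to CpG islands, had the gene-end member among 30 genes (3.33%), with 416 bp in D209N day 7, 598 bp in Flag day 7 and 262 bp in Flag day 3. Phf19 had a mirrored gene-end region. An assigned member was found at 7 of the 30 genes (23.3%), 16 in all, and an assigned mirrored region at 3 genes. Bcor, a subunit of the same complex, had 6, the most of any coding gene, and Rybp, another Polycomb subunit, had 5. Of the 6 at Bcor, chrX:12080165-12080992 rests on a Flag day 3 peak of 29 bp, and without it Bcor would be level with Rybp. Over all its assigned regions Bcor had 15 in D209N day 7 and 4 in D209N day 3, against 20 in Flag day 7 and 12 in Flag day 3. Rybp had 14 in D209N day 7 and 2 in D209N day 3, against 14 in Flag day 7 and 8 in Flag day 3. The Rybp members lay outside the gene, at 9.85 to 84.6 kb from an end, and 4 of the 6 at Bcor lay inside it.

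Regulators of other lineages were also among the members. In the neural list, 4 of 19 genes had a gene-end member (21.1%, 8.51 to 43.3%), and among them were the transcription factor genes Sox3, Lhx2 and Zic1, the last through a region nearer to Zic4. Nes had a mirrored one. At Lhx2 all 3 members lay in the gene, and 2 of them overlapped RefSeq promoters of it. The one at the gene's end had 485 bp in D209N day 7, 749 bp in Flag day 7 and 418 bp in Flag day 3, and the inner one 671 bp, 645 bp and 378 bp in the same lists. No Lhx2 region was listed in D209N day 3. In the endoderm and trophoblast list the count was 2 of 18, with a mirrored region at Gata6: Eomes, with 755 bp in D209N day 7, 903 bp in Flag day 7 and 556 bp in Flag day 3, and Sox17, which rests on a Flag day 3 peak of 4 bp. Among 25 TGF-beta and BMP genes, with a mirrored region at Bmp7, the 2 were the ligand gene Bmp2, with 923 bp in D209N day 7, 568 bp in Flag day 7 and 841 bp in Flag day 3, and Id2, a target of BMP signalling. The interferon list had 2 of 20, the induced genes Ifit1 and Oasl1, and the cell cycle list 1 of 29, E2f1, whose region covers the promoter of its neighbour Necab3.

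**Figure D4:**
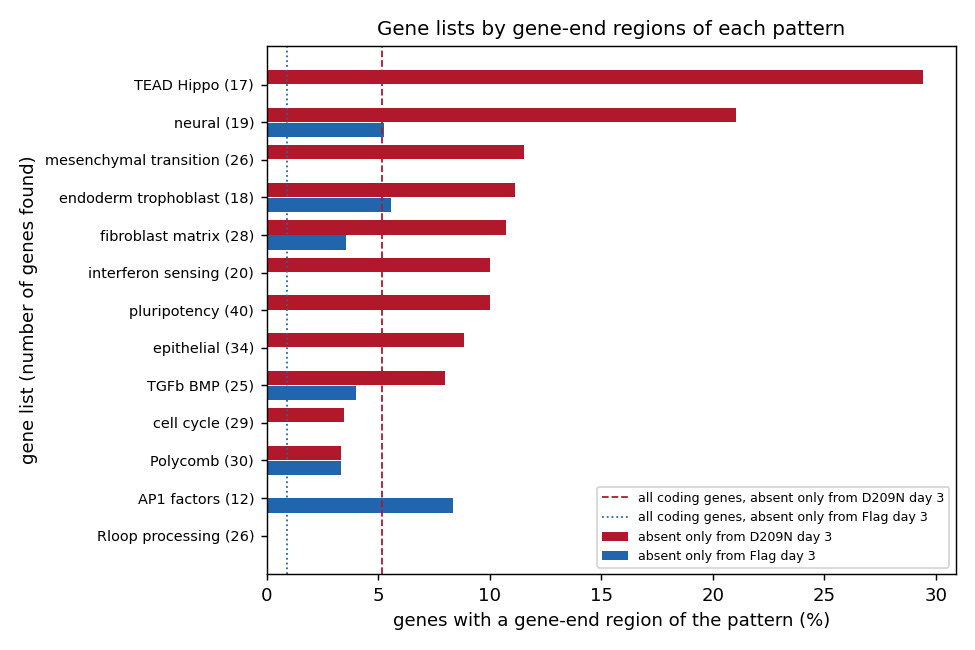
Share of the genes of each list (y axis, with the number found) that have a gene-end region absent only from D209N day 3 (red) or only from Flag day 3 (blue), in percent (x axis); lines give the same shares over all coding genes, 5.16% and 0.914%. Counted over all genes of a list, TEAD and Hippo genes stand highest at 29.4%, and R-loop processing genes have none of either pattern. Genes without a Flag day 3 gene-end region, which cannot have a gene-end member, are counted too.

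Retinoic acid genes were looked at after their values had been seen, and nothing is supported by their count. Of 20 such genes 4 had a gene-end member and 7 an assigned one, and 0 had a mirrored region. Rarg and Rxra encode nuclear receptors for retinoids. The Rarg region was 1006 bp wide in D209N day 7, 1343 bp in Flag day 7 and 956 bp in Flag day 3, and the Rxra region 617 bp, 970 bp and 678 bp in the same lists. Aldh1a2, which makes retinoic acid, had 665 bp in D209N day 7, 907 bp in Flag day 7 and 666 bp in Flag day 3. Lrat, which stores retinol as ester, had 442 bp in D209N day 7, 851 bp in Flag day 7 and 341 bp in Flag day 3. At these 4 the D209N peak at day 7 was the narrower. Of the other 5 members assigned to the list, the D209N peak was the wider at day 7 in 3, namely in Rara (461 bp in D209N and 437 bp in Flag) and in the second regions of Rxra (653 bp in D209N and 406 bp in Flag) and Aldh1a2 (336 bp in D209N and 250 bp in Flag).

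Members were spread thinly over genes. Of the genes with members, 2716 had 1, 489 had 2 and 109 (0.498% of coding genes) had at least 3. After Bcor, 5 members each were assigned to Rbm20, an RNA-binding splicing regulator, Plekha6, Rybp, Tead1 and Zbtb7c. With 4 each came Npas3, Sh3glb1, Med27, App, Fam53b, Lef1, Ankrd11, 1700001O22Rik and Fmnl2. At Lef1, a nuclear partner of beta-catenin, the 4 members lay 1.91 to 26.2 kb from the nearer end. The mirrored set reached at most 3 regions per gene. Along the chromosome, among the regions of the Flag day 3 list, 3227 members had no member next to them, and 476 pairs, 71 runs of 3, 15 runs of 4 and 2 runs of 5 occurred. One run of 5 lay at chr2:153492424-153600778 near Nol4l and Commd7, and the other at chr6:100074844-100218997 near Rybp.

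At 1067 coding genes (4.88%) the Flag day 3 list held a gene-end region and the D209N day 3 list held none. At 21 genes the Flag day 3 list held at least 2 gene-end regions and all were members. Among them were Adra1d, Afmid, Ank1, Asb6, Cdc42ep1, Edc4, Epop, Igf2bp1, Kit, Lhx2, Lsmem1, Mapk3, Mideas, Mlh3, Onecut1, Pif1, Rgs8, Slc10a4, Synj2 and Wipf1. Kit encodes the stem cell factor receptor, Mapk3 the kinase ERK1 and Onecut1 a homeodomain factor. Separate members stood at both ends of 15 genes, which include 13 of those 21 and also Alk and Basp1. In Wipf1, whose product binds the actin regulator WASP, the pair lay about a gene length of 99.9 kb apart, and the wider one measured 1018 bp in D209N day 7, 900 bp in Flag day 7 and 425 bp in Flag day 3. A further 29 genes, Utf1 and Sox3 among them, were short enough for 1 member to touch the windows of both ends. For the 21, 15 and 29 genes, neither the number of genes that could qualify nor a mirrored count is given here. They are bare counts. Of gene-end regions in the 3 other lists, 9.42% were members.

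A few members were wide. The 10 widest Flag day 3 peaks had as nearest coding genes Tnrc6a, Marveld1, Irx1, Lrrc59, Abca15, Stox2, Acvr2a, Gpr176, Trim7 and Tmtc1, and measured between 1075 and 1265 bp. Those of Stox2 and Acvr2a lay 109 and 372 kb from a gene end, beyond the limit for assignment. The one in Tnrc6a, a partner of Argonaute proteins, had 703 bp in D209N day 7, 415 bp in Flag day 7 and 1265 bp in Flag day 3, whereas Marveld1 had 1449 bp, 1425 bp and 1213 bp in the same lists. The 10 widest D209N day 7 peaks had as nearest coding genes Lzts2, Sfmbt1, Kcng3, Ifitm6, Pgr, Stox2, Srebf1, Col5a1, Insm1 and Tspan4, and measured between 1488 and 2408 bp. At Lzts2 the peak measured 2408 bp in D209N day 7 and 1629 bp in Flag day 7, against 119 bp in Flag day 3. Sfmbt1, related to a Polycomb-group gene of Drosophila, had 1808 bp in D209N day 7, 1491 bp in Flag day 7 and 835 bp in Flag day 3.

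Promoters under members were rich in CpG, like those listed in all 4 lists, and, like promoters under regions seen at day 7 alone, held several motifs less often than those. RefSeq promoter sequences of 300 bases were at hand for 17492 coding genes in 21263 entries, and 770 entries of 697 genes overlapped a member. Entries of 1 gene can overlap each other and are not independent. The median number of CpG dinucleotides was 21 in member promoters (quartiles 12 and 29), 18 under regions seen at day 7 alone, 23 under regions of all 4 lists and 3 where no region was listed.

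The ETS pattern CCGGAAG, the letters bound by a family that drives housekeeping promoters, occurred in 7.53% of member promoters (5.87 to 9.61%). It occurred in 6.20% under regions seen at day 7 alone (4.53 to 8.43%), in 19.99% under regions of all 4 lists (19.2 to 20.8%) and in 11.6% of all promoters. The intervals of members and of promoters in all 4 lists did not overlap. The pattern of NRF1, a factor of CpG-rich promoters, occurred in 5.84% of member promoters and 11.6% of those in all 4 lists, with 2.85% under regions seen at day 7 alone and 6.38% over all promoters. The CRE pattern TGACGTCA gave 0.779%, 3.70% and 2.23% in the same 3 sets, and CCAAT, the NFY pattern, 30.9%, 39.6% and 38.2%. CCAAT stood at 28.8% under regions seen at day 7 alone and at 28.6% under mirrored regions. By value, members were the lowest of the 3 sets in all 4 patterns, though for NRF1 the interval of members (4.40 to 7.73%) took in the value over all promoters. The place of ETS depended on the overlap rule: with at least 50% of a region covered, 12.3% of member promoters held it (10.8 to 14.0%), which is not below the share over all promoters. The KLF pattern CCNCNCCC, which also fits Klf4, went the other way, with 76.9% in member promoters (73.8 to 79.7%), 71.9% in all 4 lists (71.1 to 72.8%) and 56.6% over all promoters. It stood at 78.2% under mirrored regions (69.9 to 84.6%) and at 74.2% under regions seen at day 7 alone (70.5 to 77.6%). The higher KLF share is therefore not particular to the members either.

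Restricting the promoters to 12 to 29 CpG dinucleotides, the quartiles of the members, left 421 member promoters and 6341 of the regions in all 4 lists. ETS matches then occurred in 9.74% (7.26 to 12.9%) and 22.6% of them, NRF1 in 5.70% and 11.3%, CRE in 0.95% and 4.02%, and CCAAT in 33.7% and 42.8%. The other sets at this CpG content lay on the members' side of these gaps for most patterns. Promoters under regions seen at day 7 alone gave 8.10% for ETS, 3.17% for NRF1 and 31.0% for CCAAT, and promoters with no region listed 7.12%, 5.15% and 32.3%. In 68 promoters under mirrored regions ETS occurred in 14.7% (8.19 to 24.997%), NRF1 in 10.3% (5.08 to 19.8%) and CRE in 0%. The lower shares of ETS, NRF1 and CCAAT are therefore not particular to the members. CRE occurred in 2.11% at day 7 alone (0.972 to 4.53%) and in 2.88% with no region listed (1.85 to 4.45%). The latter value lay above the members' interval for CRE (0.370 to 2.42%). The other patterns lay closer together over all entries: TEAD, GGAATG, 13.0% in member promoters, 10.9% in all 4 lists and 13.6% over all promoters; AP-1, TGANTCA, 5.19%, 4.08% and 6.99%; MYC, CACGTG, 9.09%, 10.6% and 7.84%. SOX, AACAATG, occurred in 2.47%, 1.59% and 3.25%, RUNX, TGTGGTT, in 2.47%, 3.03% and 4.71%, and OCT, ATGCAAAT, in 1.04%, 1.42% and 1.66%. Both strands were searched, and MYC and CRE read the same on both.

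**Figure D5:**
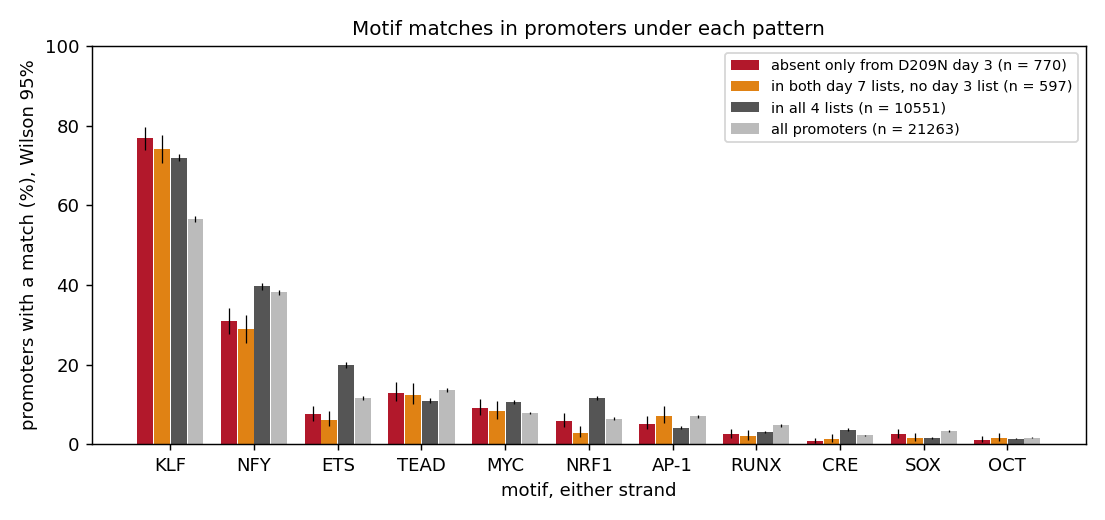
Share of 300-base RefSeq promoters (y axis, percent, from 0) with at least 1 match to each motif on either strand (x axis), for promoters under members (red), under regions seen at day 7 alone in both arms (orange), under regions of all 4 lists (dark grey) and for all promoters (light grey); bars are Wilson 95% intervals. ETS matches stood at 7.53% in member promoters, 19.99% under regions of all 4 lists and 11.6% in all promoters.

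Some members lay beside genes of microRNAs, short RNAs that repress messages through bases 2 to 8, the seed. Of 1005 RefSeq hairpins, 19 (1.89%) lay within 1 kb of a member, 2 (0.199%) within 1 kb of a mirrored region and 121 (12.0%) within 1 kb of a region of all 4 lists. There were 4462 members, 1254 mirrored regions and 21785 regions of all 4 lists. For their number, members thus had no more hairpins beside them than regions of all 4 lists. Some of the 19 hairpins share a member. The mature sequences below, seed in capitals, belong to 5 of the 19 and were chosen after their positions were seen.
miR-423-5p: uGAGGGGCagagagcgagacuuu
miR-6921-5p: uGAGGGGCaugagguaggaagc
miR-203-3p: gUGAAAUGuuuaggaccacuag
miR-199b-3p: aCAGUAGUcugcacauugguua
miR-449c-5p: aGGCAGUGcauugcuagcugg
The first and second share the seed GAGGGGC, though their hairpins lie apart on chromosome 11. The Mir423 hairpin is overlapped by a member of 904 bp in D209N day 7, 761 bp in Flag day 7 and 703 bp in Flag day 3. Mir203, whose product is known from skin as a restraint on epidermal stem cells, lies 53 bp from a member with peaks of 521 bp in D209N day 7, 646 bp in Flag day 7 and 371 bp in Flag day 3. Mir449c, of a family of multiciliated cells, is overlapped by a member of 428 bp in D209N day 7, 363 bp in Flag day 7 and 348 bp in Flag day 3. Mir199b lies 74 bp from a member whose D209N day 7 peak was 121 bp wide, against 487 bp in Flag day 7 and 585 bp in Flag day 3.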

How the data were processed

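ATAC-seq libraries were deposited as 1 peak list for each of the 4 groups, OSKM with RNase H1(D209N) or with Flag at days 7 and 3. The lists give interval starts and ends (values without a fixed unit, 1-based here) and a name, and hold no score, signal or read count, so depth is unknown. Per the submitters' processing notes, the tools were Bowtie2 2.3.2 and CASAVA and the builds GRCm38.p5 and mm10. How peaks were called, with what threshold and insertion offset, and how replicates were joined is not given in the sources used here. Every peak name carries rep1. Lists were matched to groups by the arm and day in the peak names, and 3 mitochondrial intervals per list were left out.

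Union regions, widths and distances were computed with pandas 2.3.3 and numpy 2.4.6 under Python 3.11.15, and Wilson 95% intervals with scipy 1.17.1. The steps were tested on simulated peak lists. Gene ends, promoter sequences and microRNAs came from RefSeq on GRCm38.p6. No genome sequence was used, so motifs were counted in the 300-base RefSeq promoters in place of whole regions.

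The members and the gene lists were chosen with earlier results of these data known. Named genes are list genes with a gene-end member, the 15 genes with most members, those nearest the 10 widest peaks in Flag day 3 and in D209N day 7 and the regions nearest the limit of the rule, and genes with several gene-end members that account for all their Flag day 3 gene-end regions, or with members at both ends. Other genes were chosen after their values were seen. Some named items that the rule selects are not reported here.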

Additional observations from a re-analysis of the deposited data

How the results depend on the processing

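No paired analysis was possible because each group has 1 peak list and no test was made. Of 38 alternative values, 21 stayed within 1.5 times the main count or inside the counting interval. When at least 50% of a region had to be covered, the gene-end share of members was 33.9%, 51 listed genes had a gene-end member, against 30, and ETS matches stood at 12.3%. With Flag day 3 peaks above their median width only, members numbered 637 and the ratio to the mirrored set turned round to 0.0865, since the limit by construction removes members and adds mirrored regions, and 36.7% were at gene ends. With that limit in all 4 lists there were 2620 members, a ratio of 3.80 and 51.6% at gene ends. The gene-end share was 20.2% with a 500 bp window, 29.5% with 2 kb, 38.1% with 5 kb and 30.9% with the ends of all genes, windows and ends that by construction take in fewer or more regions. Genes with at least 3 members numbered 28 with assignment within 20 kb, against 109. The share with a skipped D209N day 3 number was 56.0% with flanks within 200 kb and 43.5% within 20 kb, an alternative added after the data were seen, as were those on listed genes, ETS matches and peaks of at most 50 bp. ETS matches stood at 9.74% between the quartiles of the members' CpG numbers. Where no construction is named, the cause was not tested.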
